A study of Homo sapiens with 6 samples.

Results

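The genes described here build and start the DNA replication fork in SW480 cells, a line from a human colorectal adenocarcinoma. The list named 48 symbols for origin licensing, the replication fork, nucleotide supply and the cyclins of the G1/S transition, and a member was a row of the deposited expression table whose Ensembl identifier carries a listed symbol. Of the 48, 43 were found among the 59192 features of the table. POLD1, POLD3, PRIM1, FEN1 and RRM2 had no row of their own under an Ensembl identifier, so their RNA levels were not analysed here. RNA of 3 libraries labelled SW480-45, with the genotype HPSE-knockdown, was compared with RNA of 3 libraries labelled SW480-NC, with the genotype control. All 6 libraries come from cells that stably express Cas9 from a lentivirus selected with puromycin and that received a second lentivirus with a guide RNA and EGFP. The guide of the control line is a control sequence and the guide of the knockdown line targets an exon of HPSE. The study's methods name 2 knockdown lines made with different guides, of which SW480-KD1 was sequenced, so SW480-45 was taken to be SW480-KD1. The knockdown was therefore seen with 1 guide in 1 line, and the sources used here do not say whether that line is a clone. The study describes 3 independent experiments per line.

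DNA replication is prepared in G1, when the origin recognition complex (the ORC proteins), CDC6 and CDT1 load the ring-shaped MCM2-7 helicase onto origins. Cyclin E with CDK2 then fires the origins, CDC45 and the GINS complex join the helicase, and PCNA, RPA and the polymerases follow it. Many of these genes are switched on together at the G1/S transition by E2F transcription factors, which is why they serve as a readout of proliferation in tumor cells.

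The promoters of several members are printed to show the words that E2F factors are known to bind. RefSeq promoter windows, each from 250 bases before to 50 bases after an annotated start, were at hand for 39 of the 48 listed symbols, among them POLD1, PRIM1, FEN1 and RRM2, which had no row. The E2F words searched were TTTCCCGC, TTTCGCGC, TTTGCCGC and TTTGGCGC on both strands, and overlapping matches were counted separately. At least 1 word lay in a window of 22 of these 39 listed genes (56.4%), against 3.99% of the 27305 symbols in the promoter table. The CCAAT box was found in 64.1% of the 39 and in 39.7% of all symbols, and the GC box GGGCGG in 76.9% and 48.3%. A match is a description of the letters and not a measured site, and the lack of a match does not show that E2F is not bound. Bases before the start of 4 genes are given 5′ to 3′ along each gene in GRCh38.p14, with E2F words in capitals. Each stretch stops before the annotated RefSeq start, or before the first base that GENCODE places in the gene where that comes earlier. Distances are counted from the RefSeq start. MCM6 held 4 words, PCNA and POLA1 held 1 each, and CCNE1 held none of the searched words and is given as the contrast in letters. The stretches were chr2:135876444-135876693 (minus strand) for MCM6, chr20:5126627-5126872 (minus strand) for PCNA, chrX:24693668-24693917 (plus strand) for POLA1 and chr19:29811741-29811897 (plus strand) for CCNE1.
MCM6: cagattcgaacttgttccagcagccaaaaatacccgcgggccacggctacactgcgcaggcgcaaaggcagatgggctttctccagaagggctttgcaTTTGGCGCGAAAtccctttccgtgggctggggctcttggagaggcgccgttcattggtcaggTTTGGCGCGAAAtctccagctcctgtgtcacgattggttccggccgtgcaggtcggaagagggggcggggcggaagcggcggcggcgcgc
PCNA: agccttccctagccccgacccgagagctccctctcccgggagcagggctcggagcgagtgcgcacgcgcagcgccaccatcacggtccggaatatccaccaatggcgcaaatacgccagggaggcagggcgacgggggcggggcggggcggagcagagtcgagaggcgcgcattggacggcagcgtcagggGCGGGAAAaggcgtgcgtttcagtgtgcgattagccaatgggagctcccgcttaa
POLA1: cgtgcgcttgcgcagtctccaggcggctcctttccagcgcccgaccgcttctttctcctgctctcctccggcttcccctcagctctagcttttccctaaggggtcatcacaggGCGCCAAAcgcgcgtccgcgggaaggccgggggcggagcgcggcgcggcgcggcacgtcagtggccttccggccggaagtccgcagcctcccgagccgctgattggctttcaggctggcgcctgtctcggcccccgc
CCNE1: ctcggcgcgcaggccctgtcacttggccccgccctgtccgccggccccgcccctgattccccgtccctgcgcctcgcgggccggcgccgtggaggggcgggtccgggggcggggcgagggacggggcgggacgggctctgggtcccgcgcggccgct
In MCM6 the word TTTGGCGC overlapped GCGCGAAA, the reverse complement of TTTCGCGC, and this pair began 152 and again 90 bases before the start. PCNA carried GCGGGAAA, the reverse complement of TTTCCCGC, 59 bases before its start. POLA1 carried GCGCCAAA, the reverse complement of TTTGGCGC, 137 bases before its start.

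**Figure D1:**
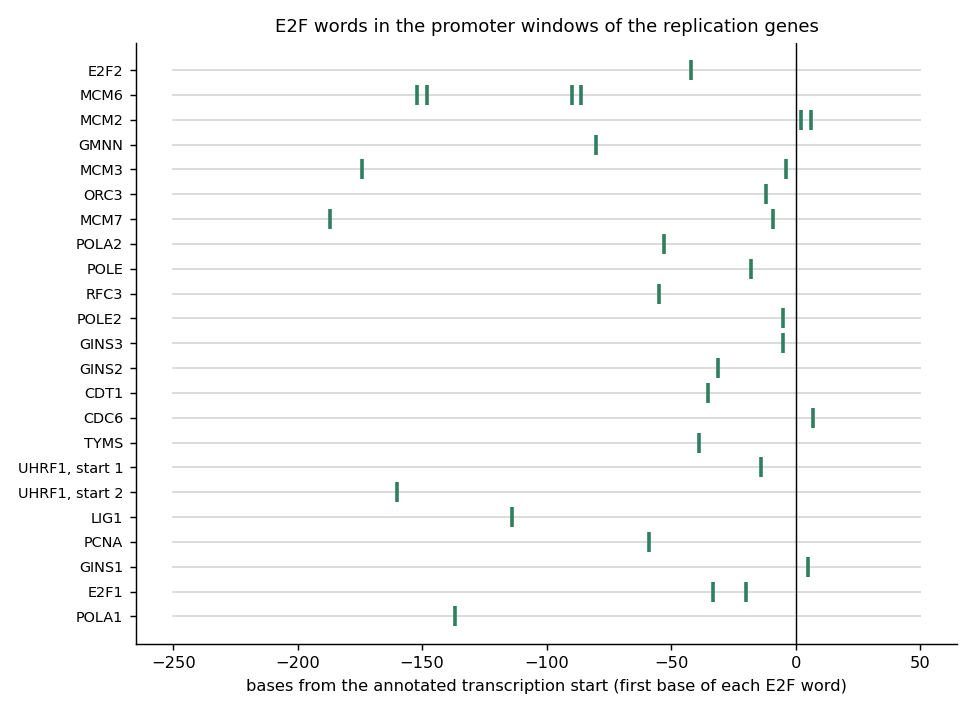
Position of each E2F word (tick) in the promoter windows of the 22 members that held one, as the distance in bases of its first base from the annotated start (vertical line); each row is a window, and UHRF1 has 2. MCM6 carries 4 words, all before the start, and the words of MCM2, CDC6 and GINS1 begin after it.

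The libraries held between 33221323 and 39802365 reads on the features, and the test covered 21703 features whose mean reached 10. The deposited unit, the normalized count, is a count of reads divided by a size factor of the library. HPSE, the gene of heparanase and the target of the guide, had 136, 172 and 146 normalized counts in SW480-45, all below the 270, 295 and 246 of the control. Its log2 fold change was −0.83 (SE 0.14, adjusted p = 0.0547 from limma), with no overlap between the lines (p = 0.1, two-sided exact permutation test, the smallest that 3 against 3 allows). Of the 8 markers of colon epithelium, 7 had a row. KRT8, a keratin, was at 70496 to 90059 normalized counts, CDX2 at 19 to 40 and CDH17 at 0 in all but 1 library. The summed level of these markers, most of it KRT8, was 111278 to 119777 in SW480-45 and 128944 to 136560 in SW480-NC. EPCAM, KRT8 and KRT20 were lower in every SW480-45 library. VIL1 was higher in every one, at 8854 to 9508 against 7576 to 8524. KRT20, at 57.1% of control, was the marker with an adjusted p under 0.05 (0.0072 from limma). Fibroblast markers with a row (4 of 6) summed to 280 to 387 normalized counts in SW480-45 and 229 to 264 in SW480-NC, and COL1A2 was at 0 in 5 libraries. Endothelial markers (4 of 4) summed to 36.1 to 55.9 and 24.1 to 40.3. Leukocyte markers (4 of 6) summed to 59808 to 62473 and 67577 to 72260, nearly all of it LYZ, which intestinal epithelium also makes. The part of these levels in the results was not tested.

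The DNA replication genes were abundant and differed little between the lines. All 43 members passed the filter, and the lowest value of any member in any library was 229 normalized counts (CCNE2). None of the 43 had an adjusted p under 0.05 in limma, where 0.802% of all features did. edgeR called 0 of the 43 and 136 of all 21703 features, and DESeq2 called 1 and 756. At an unadjusted p under 0.05, 9 of the 43 (20.9%) were lower in SW480-45, against 8.15% of all features tested, and 0 were higher, against 8.1%. Of the better expressed features, those whose mean reached 50, the share lower at this threshold was 10.6%. The 9 were CCNE2, CCNE1, RFC3, TYMS, CDC6, UHRF1, MCM4, PCNA and RRM1. The log2 fold change was below 0 in 35 of the 43 members (81.4%), against 50.7% of all features, and above 0 in 8, against 49.3%. Among features whose mean reached 50, 52.2% were below 0. The median over the members was −0.08 on the log2 scale, and over all features tested it was −0.0048. The median of the members was −0.052 without SW480-NC replicate 3, and −0.04 under quantile normalization, where 30 members were below 0 and 13 above. For 11 members, the same 9 with POLA1 and POLA2, every SW480-45 library lay below every SW480-NC library, a separation seen in 12% of all features. RFC4 was the 1 member separated in the other direction, as were 11.4% of all features. Of features whose mean reached 50, 14.7% were separated downward and 12.5% upward. In bulk RNA, fewer cells in S phase and less of these RNAs per cell cannot be told apart.

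**Figure D2:**
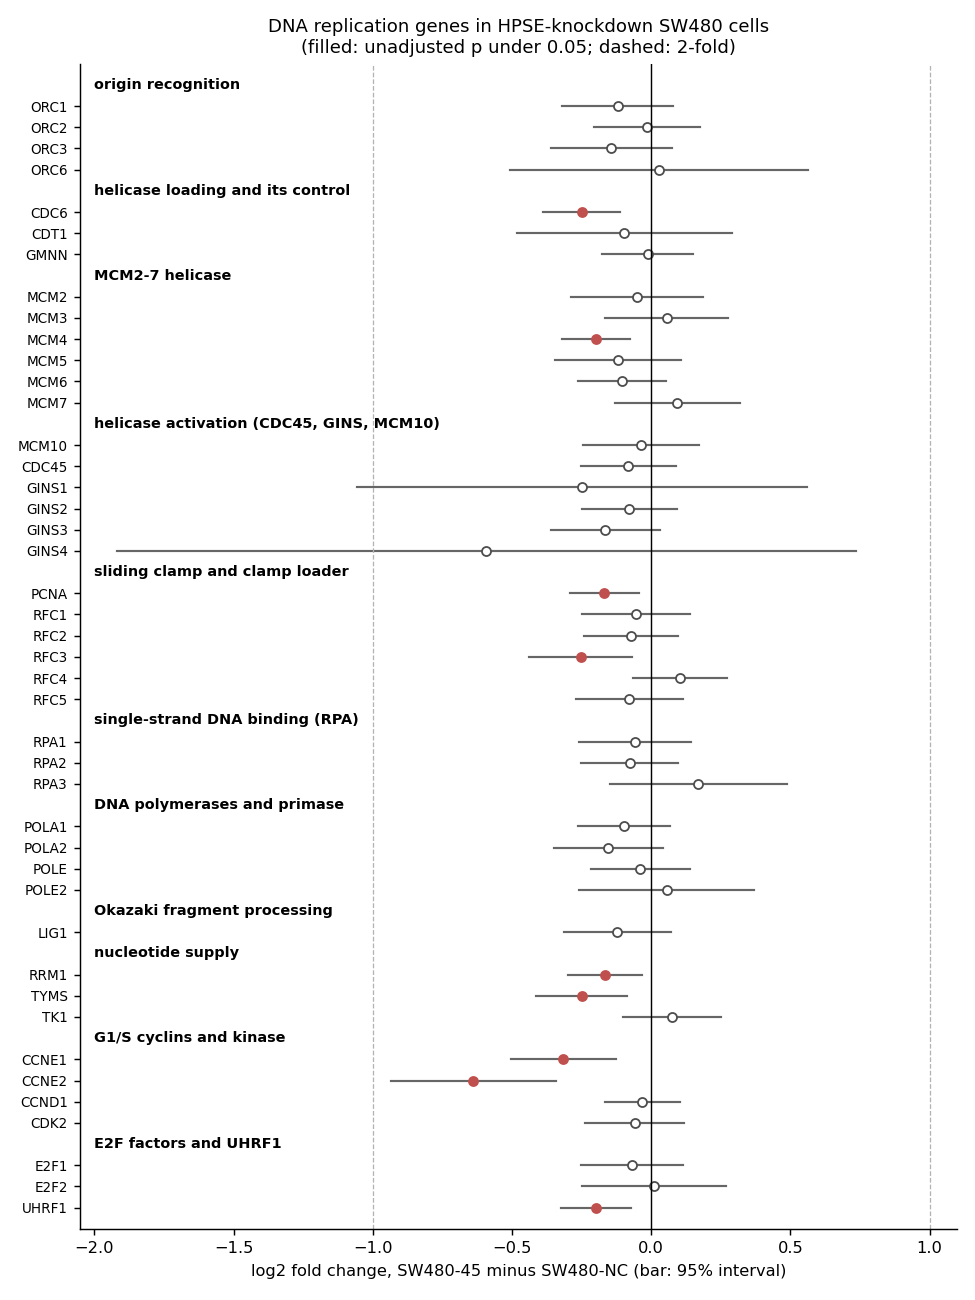
Log2 fold change of the 43 members (point) with its 95% interval from limma (bar), grouped by role; values left of 0 are lower in SW480-45, filled points have an unadjusted p under 0.05 and dashed lines mark a 2-fold change. Most points sit slightly left of 0, with CCNE2 at −0.64 and wide intervals for GINS4 and GINS1.

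The replicates were close enough to bound the differences. The 95% interval of the fold change lay within 2-fold for 41 of the 43 members (64.9% of all features and 88.1% of those whose mean reached 50). It lay within 0.5 on the log2 scale for 38 members, a bound at which all features were not counted. The exceptions to the 2-fold bound were GINS4 and GINS1. The summed normalized counts of the 43 members came to 196721, 202699 and 201022 in SW480-45 and to 207153, 204308 and 221667 in SW480-NC. The SW480-45 total was 94.8% of that of SW480-NC, and 97.3% without SW480-NC replicate 3, the library with the highest sum. The 2 sets of sums did not overlap, although SW480-45 replicate 2 and SW480-NC replicate 2 were close.

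Among the genes that mark and license origins, CDC6, the ATPase that helps to load the helicase, differed most. CDC6 had 4652, 4643 and 4723 normalized counts in SW480-45 and 5430, 5506 and 5736 in SW480-NC. Its SW480-45 libraries lay close together and below all control libraries. The log2 fold change was −0.25 (SE 0.06, 95% interval −0.39 to −0.11, adjusted p = 0.116 from limma). CDT1, the partner of CDC6 in loading, overlapped between the lines, with 1539 ± 197 (SD, n = 3) in SW480-45 and 1663 ± 375 (SD, n = 3) in SW480-NC. GMNN, geminin, the inhibitor that blocks CDT1 after S phase has begun, was nearly level, at 2106, 2040 and 2059 against 2163, 2023 and 2076 normalized counts. Its interval ran from −0.18 to 0.15 on the log2 scale. The 4 ORC subunits had log2 fold changes from −0.14 (ORC3) to 0.03 (ORC6), and their libraries overlapped. ORC1, the largest subunit, stood at 92.0% of control with an interval from −0.32 to 0.08.

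The 6 subunits of the MCM2-7 helicase, which unwinds DNA at the fork, did not differ in the same direction. MCM4 had 9407, 9528 and 9332 normalized counts in SW480-45 and 10770, 10626 and 11049 in SW480-NC. It was the subunit without overlap between the lines, at a log2 fold change of −0.20 (SE 0.05, 95% interval −0.32 to −0.08, adjusted p = 0.140 from limma). MCM7, in contrast, had 21234, 23467 and 20686 normalized counts against 18366, 19733 and 23379, a log2 fold change of 0.09 (SE 0.10). The control libraries of MCM7 spanned all but the highest SW480-45 value. MCM3 was at 0.06, MCM2 at −0.05, MCM6 at −0.10 and MCM5 at −0.12 on the log2 scale, all with overlapping libraries. MCM2 varied among the SW480-45 libraries, from 10383 to 13412 normalized counts. The summed counts of the 6 subunits came to 98.8% of control. Exons of other genes covered 23.6% of the exon bases of MCM2 and 8.94% of those of MCM7. In both, the gene with the largest share was on the opposite strand. The sources used here do not say whether reads were counted by strand.

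The factors that turn the loaded helicase into a moving one all had log2 fold changes below 0, from −0.59 (GINS4) to −0.04 (MCM10) with a median of −0.12 over 6 genes, and their libraries overlapped. CDC45, the helicase cofactor, had 11150 ± 442 (SD, n = 3) normalized counts in SW480-45 and 11824 ± 967 (SD, n = 3) in SW480-NC. MCM10, which helps to activate the helicase, was at 97.2% of control, GINS2 at −0.08 and GINS3 at −0.16 on the log2 scale. GINS1 and GINS4, the remaining subunits of the GINS complex, were the least even of all members. GINS4 had 447, 528 and 1621 normalized counts in SW480-45 and 1542, 534 and 1595 in SW480-NC. It was thus low in SW480-45 replicates 1 and 2 and in SW480-NC replicate 2, and high in the other three libraries. Its log2 fold change of −0.59 had a standard error of 0.57 and a 95% interval from −1.92 to 0.73. GINS1 had 1496, 709 and 1507 normalized counts against 1689, 1728 and 919, so that 1 library of each line was low. ORC6, the smallest ORC subunit, was low in SW480-45 replicate 2 as well, at 1210 against 2161 and 2204 in the other two. The SD within a line was 0.95 for GINS4, 0.57 for GINS1 and 0.37 for ORC6 on the log2 scale, against a median of 0.09 over the members and 0.23 over all features tested. A larger SD was seen in 4.76% of all features than in GINS4, in 16.5% than in GINS1 and in 32.6% than in ORC6. SW480-45 replicate 2 was low in all 3 genes. SW480-45 replicate 1 and SW480-NC replicate 2 were also low in GINS4, and SW480-NC replicate 3 in GINS1. Exons of other genes in GENCODE cover 23.6% of the exon bases of GINS4, 10.9% of GINS3, 0% of GINS1 and 0% of ORC6.

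**Figure D3:**
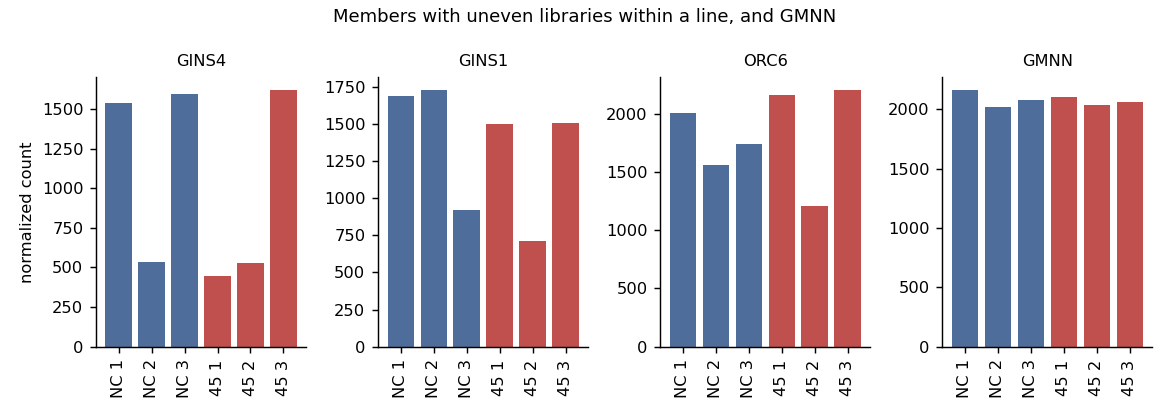
Normalized counts in each of the 6 libraries (bars, from 0; blue SW480-NC, red SW480-45) of GINS4, GINS1, ORC6 and, as an even member, GMNN. GINS4 is low in SW480-NC 2 and SW480-45 1 and 2, GINS1 in SW480-NC 3 and SW480-45 2, and ORC6 in SW480-45 2, so that SW480-45 2 is low in all 3, while GMNN stays between 2023 and 2163.

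PCNA, the sliding clamp that holds polymerases on DNA, had 13573, 13263 and 13562 normalized counts in SW480-45 and 14693, 15032 and 15703 in SW480-NC. The SW480-45 libraries were all lower, at 88.9% of control (log2 fold change −0.17, SE 0.05, adjusted p = 0.195 from limma). The clamp is opened by replication factor C, whose subunits are RFC1 to RFC5. RFC3 had 2326, 2369 and 2538 normalized counts against 3050, 2898 and 2681, again without overlap (log2 fold change −0.25, SE 0.08, adjusted p = 0.194 from limma). RFC4 went the other way, with 1837, 1962 and 1829 normalized counts in SW480-45 and 1711, 1743 and 1785 in SW480-NC (0.10, SE 0.07, adjusted p = 0.528 from limma). RFC1, RFC2 and RFC5 overlapped between the lines and lay between −0.08 and −0.05. Other genes, mainly WSB2 on the opposite strand, shared 10.6% of the exon bases of RFC5, and WSB2 was at −0.17 (SE 0.07). The annotation names 3 pseudogenes after PCNA and 1 each after RFC3 and RFC5, and how the authors' counting shared reads with them is not given in the sources used here.

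RPA, the complex that coats single-stranded DNA, and the polymerases showed small differences in both directions. RPA3, the small RPA subunit, had 737, 679 and 623 normalized counts in SW480-45 and 510, 701 and 612 in SW480-NC, the highest log2 fold change of all members at 0.17 (SE 0.14, adjusted p = 0.584 from limma). Its libraries overlapped. RPA1 and RPA2 were at −0.06 and −0.08. The catalytic subunit of polymerase alpha, POLA1, which starts new strands with primase, had 2093, 2118 and 2276 normalized counts against 2335, 2292 and 2308. Its second subunit POLA2 had 2196, 2320 and 2271 against 2460, 2343 and 2763. Both were without overlap and at log2 fold changes of −0.10 (SE 0.07) and −0.15 (SE 0.08), with unadjusted p of 0.210 and 0.107 from limma over all features. Exons of other genes, mainly AP000944.2 on the same strand, covered 35.1% of the exon bases of POLA2. POLE, the catalytic subunit of the leading strand polymerase, was at −0.04 and its partner POLE2 at 0.06. POLE2 had 856, 798 and 1032 normalized counts against 968, 861 and 753, and its direction depended on single libraries. LIG1, the ligase that joins Okazaki fragments, stood at 92.0% of control with an interval from −0.31 to 0.07.

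Of the enzymes that supply nucleotides, TYMS and RRM1 were lower in all SW480-45 libraries and TK1 was not. TYMS, thymidylate synthase, had 5080, 5465 and 5669 normalized counts in SW480-45 and 6122, 6456 and 6696 in SW480-NC. The log2 fold change was −0.25 (SE 0.07, 95% interval −0.41 to −0.09, adjusted p = 0.157 from limma). ENOSF1 on the opposite strand was the main gene sharing the 46.6% of TYMS exon bases that overlap other genes, and ENOSF1 itself was at −0.07 (SE 0.08). RRM1, the large subunit of ribonucleotide reductase, had 7917, 7929 and 8416 against 9078, 8873 and 9252 normalized counts (−0.17, SE 0.06, adjusted p = 0.230 from limma). TK1, the salvage kinase for thymidine, had 8464, 8746 and 8853 against 7618, 8120 and 9069 normalized counts, which overlapped (0.07, SE 0.08).

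The cyclins E, which activate CDK2 at the G1/S transition, were the members furthest below control among those with even libraries. CCNE2, cyclin E2, had 287, 241 and 229 normalized counts in SW480-45 and 422, 371 and 384 in SW480-NC. The lines were well apart, and SW480-45 stood at 64.3% of control. The log2 fold change was −0.64 (SE 0.13, 95% interval −0.94 to −0.34), with an unadjusted p of 0.0012 and an adjusted p of 0.0814 from limma. CCNE2 was the member that DESeq2 called, with an adjusted p of 0.00634, and over all alternatives the adjusted p ranged from 0.00634 to 0.242. Exons of other genes, mainly INTS8 on the opposite strand, covered 37.1% of the exon bases of CCNE2, and INTS8 was at −0.09 (SE 0.08). CCNE1, cyclin E1, had 937, 950 and 982 normalized counts against 1169, 1148 and 1254. It stood at 80.3% of control without overlap (log2 fold change −0.32, SE 0.08, adjusted p = 0.134 from limma). CCND1, cyclin D1, which acts earlier in G1, had 6274, 6095 and 6153 against 6533, 6243 and 6155 normalized counts, at −0.03 with an interval from −0.17 to 0.11. Of the exon bases of CCND1, 10.3% were shared with other genes, mainly LTO1 on the opposite strand, and LTO1 was at −0.77 (SE 0.29). CDK2, the kinase, was at −0.06 with an interval from −0.24 to 0.12. Its shared exon bases came to 16.8%, mainly with AC025162.1 on the opposite strand.

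E2F1 and E2F2, which are among the activating E2F factors, overlapped between the lines. E2F1 was at −0.07 (95% interval −0.25 to 0.11) and E2F2 at 0.01 (95% interval −0.25 to 0.27). UHRF1, which carries maintenance DNA methylation to the fork, had 7021, 6860 and 6833 normalized counts in SW480-45 and 7963, 7869 and 7948 in SW480-NC. Both lines were tight and clearly apart, at 87.1% of control (log2 fold change −0.20, SE 0.05, adjusted p = 0.147 from limma). The 22 tested members with an E2F word in a promoter window had a median log2 fold change of −0.10, and 18 of them were below 0. The 13 tested members with a window and no word had a median of −0.06, and 10 were below 0. These medians are a description and were not compared by a test. The word search does not sort the members into those regulated by E2F and those not.

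**Figure D4:**
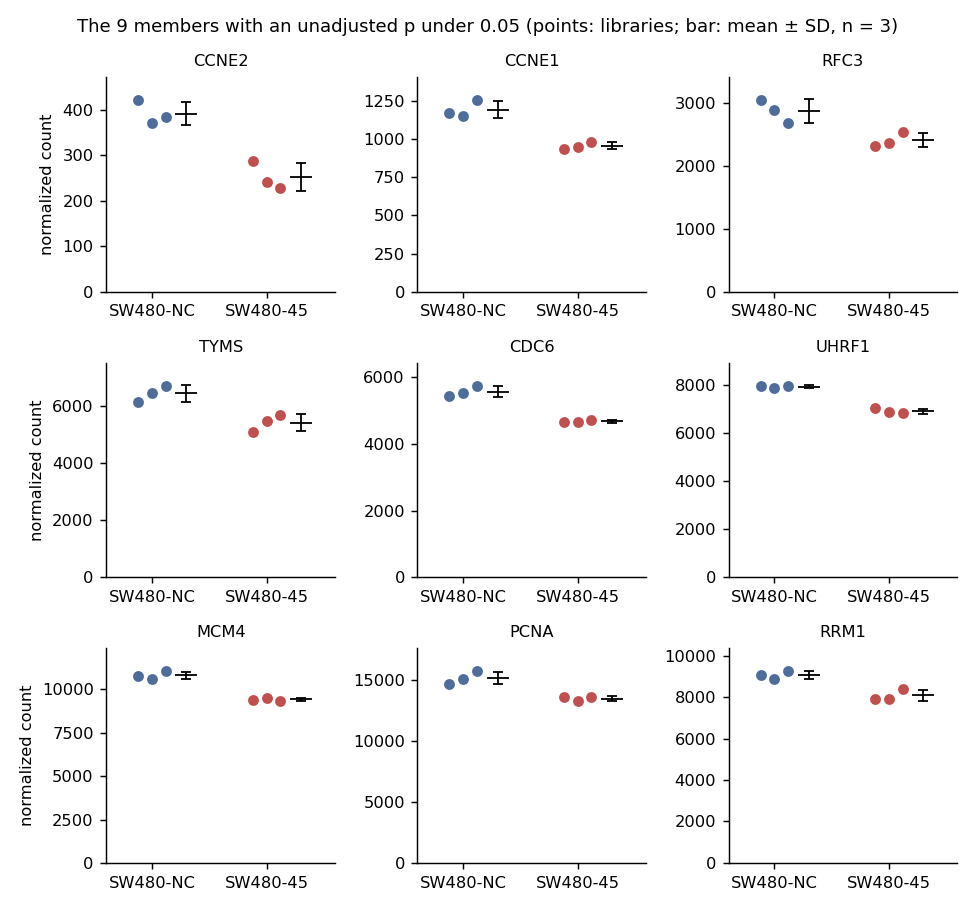
Normalized counts of the 9 members with an unadjusted p under 0.05, with 1 point per library (blue SW480-NC, red SW480-45), the mean ± SD (n = 3) as a bar and axes from 0. In each panel the 3 SW480-45 points lie below the 3 SW480-NC points, with SW480-45 at 64.3% of control in CCNE2 and at 89.2% in RRM1.

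Levels between genes were compared as normalized counts per kb of merged exon. PCNA was the most abundant member, at 9724 normalized counts per kb over the 6 libraries, and its lowest library exceeded the highest library of every other member. It was followed by MCM7 at 4821, TK1 at 4556, CDC45 at 4036 and MCM3 at 3671, of which neighbors in this order overlapped in their libraries. With the longest transcript as the length, CDC45 (5496 per kb) came before TK1 (5044). The lowest were E2F2 at 131 and CCNE2 at 73.3 normalized counts per kb, and those 2 did not overlap. CCNE1 was at 421 per kb, above CCNE2. Within the helicase, whose subunits assemble in equal number, the levels were uneven, with MCM7 highest, then MCM3, MCM2 at 2400, MCM6 at 1616, MCM4 at 1451 and MCM5 at 687 per kb. Only MCM6 and MCM4 overlapped among neighbors in this order, and their order turned when the longest transcript was used as the length (1782 and 2419 per kb). The length of the RNA forms that these cells make was not measured, so such levels are approximate.

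**Figure D5:**
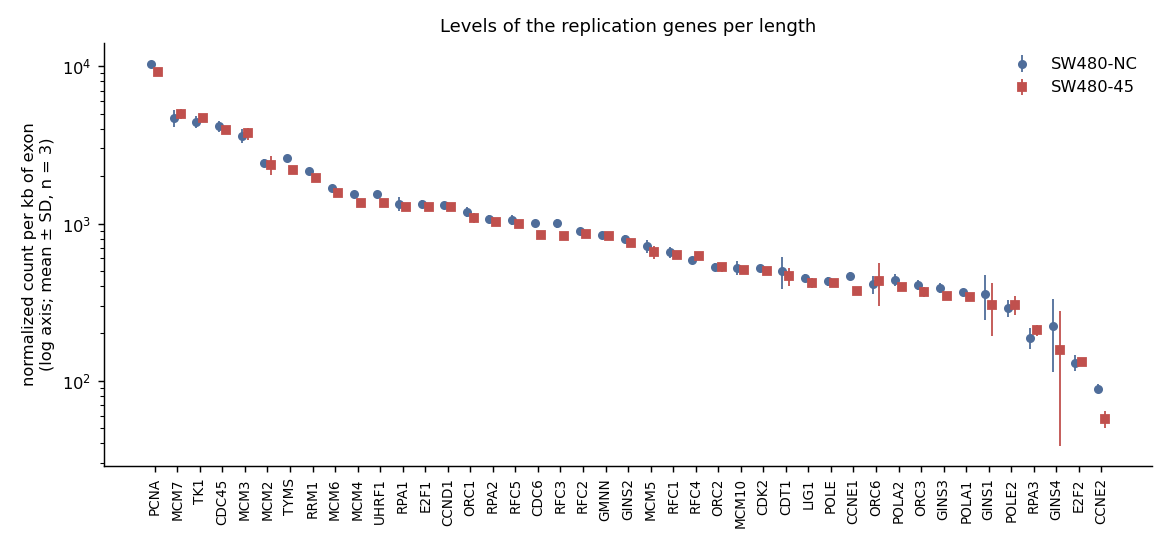
Mean normalized count per kb of merged exon (log axis) of each member in SW480-NC (blue circles) and SW480-45 (red squares), with the SD over 3 libraries as a bar, in order of level. The levels run from PCNA at 9724 to CCNE2 at 73.3 per kb in the mean of the 6 libraries. The means of the lines are furthest apart at the low end, in CCNE2 (57.4 in SW480-45 and 89.2 in SW480-NC) and GINS4 (158 and 223). The libraries of GINS4 overlapped between the lines, with SDs of 120 in SW480-45 and 109 in SW480-NC.

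Genes of the same pathway outside the list, promoting and inhibiting ones counted together, leaned the same way in RNA level, and CDK6 passed the adjusted threshold. Of 65 such genes, 52 had a row and were tested, and 1 had an adjusted p under 0.05 (1.92%, against 0.802% of all features). That gene was CDK6, the kinase that with cyclin D phosphorylates RB in G1. CDK6 had 9072, 9220 and 9951 normalized counts in SW480-45 and 14186, 14703 and 12459 in SW480-NC. It fell by 0.55 on the log2 scale (SE 0.08, adjusted p = 0.0360 from limma). This call was lost without SW480-45 replicate 1 (adjusted p = 0.140), 2 (0.117) or 3 (0.0673) and without SW480-NC replicate 1 (0.122) or 2 (0.136), under quantile normalization (0.0695), without an intensity trend (0.152) and with the replicate block (0.169). It held in 8 of 16 alternatives, and over all alternatives the adjusted p ranged from 0.000109 to 0.169, all from limma, edgeR or DESeq2. At an unadjusted p under 0.05, 16 of the 52 were lower (30.8%, against 8.15% of all features) and TFDP2, an E2F partner, was the 1 that was higher. The median log2 fold change of the 52 genes was −0.15, against −0.0048 over all features, and 40 of them (76.9%) were below 0, against 50.7%. Where the mean reached 50, 10.6% of features were lower at the unadjusted threshold and 52.2% were below 0. In the group of firing factors and checkpoint mediators, which holds CDC7, the kinase that fires origins, and CLSPN, a checkpoint mediator at the fork, all 10 tested of 13 were below 0 and 3 of them were lower at an unadjusted p under 0.05 (50.7% and 8.15% of all features). RB and the other E2F factors had 8 of 12 below 0 and 4 above, and the histone chaperones had 2 of 4 below 0, with a median of −0.02 and 0 past that threshold. E2F8 and E2F7, which are among the repressing E2F factors, and CDKN1A, the p21 inhibitor of CDK2, are named here after their values were seen. E2F8 had 1241, 1348 and 1315 normalized counts against 1809, 1692 and 1814 (−0.44, SE 0.08, adjusted p = 0.0600 from limma). E2F7 was at −0.45 and CDKN1A at −0.54, with adjusted p of 0.0928 and 0.0957 from limma. These 3 had no overlap between the lines.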

How the data were processed

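RNA-seq values of 6 libraries were analysed, 3 labelled SW480-45 and 3 labelled SW480-NC. What the authors deposited is a signal for each feature, named normalized counts, which behaves as read counts divided by 1 size factor per library. The submitters' processing notes name bcl2fastq, HISAT2, DESeq2 and GRCh38 without role or version, and the paper names Cuffdiff. The counting tool, its strand setting and the assembler behind 33265 loci without an Ensembl identifier are not given in the sources used here. All values (100% within 0.01 of a whole read) were whole multiples of 1 step per library, which gave 33221323 to 39802365 reads. Of 25927 Ensembl identifiers, 25595 had a symbol.

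The main test used limma 3.58.1 (R 4.3.3) with mean-dependent variance. Values entered it as log2 after adding 1, for features whose mean reached 10, and p-values were Benjamini-Hochberg adjusted over all of these. Fold changes are on this scale. edgeR 4.0.16 (quasi-likelihood) and DESeq2 1.42.0 on recovered reads, other scalings and filters, the replicate number as a block and each library left out were alternatives, and the steps were tested on simulated data. There, calls had the right direction with each tool, but the share of false calls was above the nominal 0.05 in all 3 tools and highest in DESeq2. Libraries of a line differed beyond counting noise (mean chi-square per feature 21.7 to 26.6). Gene models were GENCODE 29 on GRCh38 and promoters RefSeq on GRCh38.p14. The members and lists were chosen with earlier results of these data known. All members are named by role, with values in every library for those at an unadjusted p under 0.05 and for the 5 highest and 5 lowest fold changes, and pathway genes where the adjusted p is under 0.05. Other members' library values were added after they were seen. Figures were drawn with matplotlib 3.10.9.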

Additional observations from a re-analysis of the deposited data

How the results depend on the processing

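HPSE kept its direction in all alternatives, and its log2 fold change passed the adjusted threshold, at −0.83, with all features, with a mean of at least 50 and in DESeq2, and at −0.88 with robust variance and array weights. The number of members with an adjusted p under 0.05 was 0 in all alternatives but DESeq2, which gave 1. Members that were higher at an unadjusted p under 0.05 numbered 0 to 1 without a library, and those separated upward 1 to 3, or 2 under quantile normalization. The median of the members ranged from −0.11 to −0.052 without a library, and it was −0.04 under quantile normalization, where 30 members were below 0 in place of 35. The group of CDC6, CDT1 and GMNN had a median of −0.10 that ranged from −0.21 to 0.013 without a library, and the clamp and its loader ranged from −0.13 to −0.055. The summed counts of the members ranged from 93.3% to 97.3% of control without a library, an alternative chosen after seeing the data. Nucleotide supply was at −0.17, and at −0.089 under quantile normalization. The number of pathway genes with an adjusted p under 0.05 was 1, then 2 with a mean of at least 50, 0 under quantile normalization and without a trend, 4 with robust variance and array weights, 5 in DESeq2, and 0 to 1 without a library. POLE2, at 0.06, ranged from −0.050 to 0.14 without a library, and was at −0.050 without SW480-45 replicate 3 and at −0.037 without SW480-NC replicate 3. Among all features, limma called 174, and 217 with a mean of at least 50. It called 119 under quantile normalization, 11 without a trend, 429 with robust variance and array weights, and 36 to 104 without a library. On the recovered reads edgeR called 136 and DESeq2 756.

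No pairing by replicate number was visible in the values. Same-numbered libraries had correlations of −0.02 to 0.01 of their deviations from the line means, against −0.03 to 0.02 for the others. Such values do not show whether same-numbered libraries came from the same experiment. With the replicate block, 0 members and 0 pathway genes passed the adjusted threshold, CDK6 had an adjusted p of 0.169, and 12 features were called in place of 174. The cause of these changes was not tested. edgeR and DESeq2 gave no interval for the count within 2-fold. The median standard error of the members was 0.08 on the log2 scale, which limits what 3 libraries a line could show.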
